A study of Homo sapiens with 4 samples.

Results

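The 10 genes described here are YAP1, WWTR1, TEAD1, TEAD2, TEAD3, TEAD4, CCN1, CCN2, ANKRD1 and AMOTL2, taken by name as cofactors, DNA-binding factors and targets of the Hippo pathway. They are 10 of 19974 protein-coding genes on chromosomes 1 to 22 and X, and all 10 were found in the RefSeq annotation of GRCh38.p14. ChIP-seq, the sequencing of DNA pulled down with a modified histone, was done in MCF10A, an immortalised but non-tumorigenic line of human breast epithelium, for H3K4me3, H3K79me2 and H3K27me3. Each of these marks has 1 library, and the cells of all libraries were grown in mammary epithelial medium with 100 ng/ml cholera toxin. An input DNA library completes the 4 samples, and no peak list of it was used here. No treatments or genotypes are compared, so each value below is set beside the same value over all protein-coding genes. With no replicates no difference has a test or an error, and peak lists do not give read depth.

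The Hippo pathway is a chain of kinases that holds a pair of related coactivators, YAP (gene YAP1) and TAZ (gene WWTR1), in the cytoplasm. When the kinases are quiet, as in spread or growing epithelial cells, YAP and TAZ enter the nucleus, bind the TEAD transcription factors and switch on genes such as CCN1 and CCN2. H3K4me3 marks active and poised promoters, H3K79me2 is laid by DOT1L over the beginning of transcribed genes, and H3K27me3 is the mark of Polycomb repression.

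Promoters of CCN2, ANKRD1, WWTR1 and AMOTL2 are shown first, so that marked starts can be set beside unmarked ones. The listed promoters of YAP1, TEAD2 and TEAD3 and the outer one of AMOTL2 are not shown. Each line holds 300 bases from RefSeq in GRCh38.p14, 250 before and 50 after the listed start, read 5′ to 3′ on the gene's strand. Capitals mark the core TEAD motif GGAATG on either strand (CATTCC on the other) and the AP-1 motif TGANTCA, which reads the same on both strands. No TEAD match overlapped an AP-1 match in these promoters. CCN2 is at chr6:131951323-131951622 (minus strand), ANKRD1 at chr10:90921038-90921337 (minus), and the WWTR1 promoters, both on the minus strand, at chr3:149703224-149703523 and chr3:149657976-149658275. AMOTL2 is shown at the inner of its 2 listed starts, at chr3:134374398-134374697 (minus).
CCN2: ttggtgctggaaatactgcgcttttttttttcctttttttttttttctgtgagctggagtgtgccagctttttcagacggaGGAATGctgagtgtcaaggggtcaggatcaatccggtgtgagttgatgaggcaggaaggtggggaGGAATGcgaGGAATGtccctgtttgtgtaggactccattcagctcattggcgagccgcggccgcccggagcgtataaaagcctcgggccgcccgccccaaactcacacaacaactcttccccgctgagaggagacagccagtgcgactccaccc
ANKRD1: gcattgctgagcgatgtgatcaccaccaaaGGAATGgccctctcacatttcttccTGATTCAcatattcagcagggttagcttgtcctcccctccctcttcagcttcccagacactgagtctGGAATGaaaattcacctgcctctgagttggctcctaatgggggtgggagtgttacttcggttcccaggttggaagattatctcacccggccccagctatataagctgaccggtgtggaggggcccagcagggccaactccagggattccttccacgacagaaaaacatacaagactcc
WWTR1 outer start: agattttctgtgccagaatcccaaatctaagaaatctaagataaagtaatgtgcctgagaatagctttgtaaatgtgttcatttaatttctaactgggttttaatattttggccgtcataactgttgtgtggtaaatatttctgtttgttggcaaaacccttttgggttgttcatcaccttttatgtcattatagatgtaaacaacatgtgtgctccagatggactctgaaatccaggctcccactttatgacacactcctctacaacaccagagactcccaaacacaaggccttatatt
WWTR1 inner start: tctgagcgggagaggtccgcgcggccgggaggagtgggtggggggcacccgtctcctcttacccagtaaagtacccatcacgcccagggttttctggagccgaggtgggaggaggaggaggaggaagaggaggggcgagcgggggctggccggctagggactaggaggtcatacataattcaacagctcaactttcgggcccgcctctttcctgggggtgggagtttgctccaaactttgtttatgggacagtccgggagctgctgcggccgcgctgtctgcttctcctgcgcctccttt
AMOTL2 inner start: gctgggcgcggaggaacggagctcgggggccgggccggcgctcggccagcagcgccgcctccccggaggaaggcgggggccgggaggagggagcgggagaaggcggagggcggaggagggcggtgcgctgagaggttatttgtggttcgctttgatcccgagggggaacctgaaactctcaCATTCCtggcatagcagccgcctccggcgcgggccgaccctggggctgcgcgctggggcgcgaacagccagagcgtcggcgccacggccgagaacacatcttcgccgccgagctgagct

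CCN2 held the TEAD motif 3 times, beginning 169, 104 and 95 bases before the start. At least 3 matches were found in 23 of the 22132 promoters of the same length, or 0.104%, while 12.2% held at least 1. ANKRD1 held 2 TEAD matches, 220 and 128 bases before its start, and an AP-1 match at 195 bases, a motif found in 6.15% of promoters. The inner AMOTL2 start had 1 TEAD match at 69 bases, on the other strand, and YAP1 had 1 at 162 bases. In all, 4 of the 10 listed promoters of 7 member genes held the TEAD motif. A match is only a run of letters, and no TEAD binding was measured. The promoters also differed in CG dinucleotides, with 1 at the outer WWTR1 start, 1 at the outer AMOTL2 start, 5 at ANKRD1, 14 and 19 at the TEAD2 starts, 15 at CCN2, 18 at the inner WWTR1 start, 37 at the inner AMOTL2 start, 40 at YAP1 and 44 at TEAD3. The outer AMOTL2 start, with 1, had 74.5% of its H3K4me3 window and 95.5% of its H3K79me2 window in peaks. These windows overlap those of the inner AMOTL2 start, 970 bp away, and hold the same peaks. The outer AMOTL2 start therefore cannot be read as a separate marked start of low CG. The median of the listed member promoters was 16.5, and that of all promoters was 21.

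A start was taken as marked by H3K4me3 or by H3K27me3 where 25% or more of the bases within 1000 bp of it, on both sides, lay in peaks. For H3K79me2 the same share was asked of the first 5000 bp into the gene, or of all of a shorter gene. A gene with a marked start is said to be called for the mark. Starts were those of the RefSeq promoter table, and for TEAD1, TEAD4 and CCN1, with no entry there, both ends of the gene record were examined. H3K4me3 was called at 9 of the 10 genes, where 68.6% of all protein-coding genes had it. H3K79me2 was called at 7 of 10, where 52% of all genes had it, and H3K27me3 at 0 of 10, where 8.23% of all genes had it. YAP1, WWTR1, TEAD1, TEAD3, TEAD4, CCN1 and AMOTL2 had both active marks, the state of 51% of all genes. TEAD2 and CCN2 had H3K4me3 without H3K79me2, as did 17.6% of all genes, and ANKRD1 had none of the marks, as did 26.7%. The members nearest to the threshold of 25% were CCN2, just outside it with 15.6% for H3K79me2, and TEAD3, inside it with 67.4%.

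**Figure D1:**
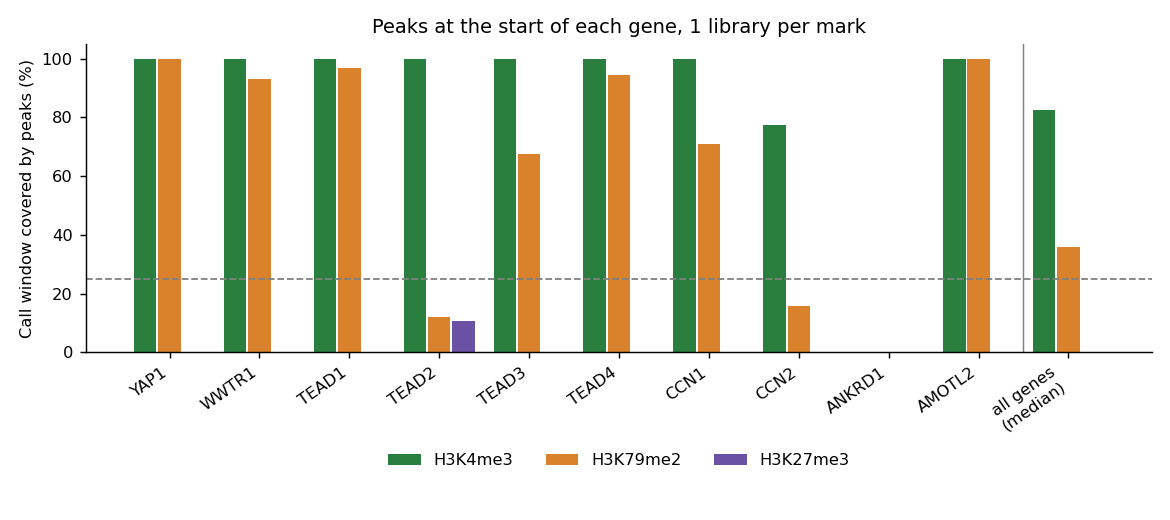
Share of the call window covered by deposited peaks (vertical axis, percent) at the 10 genes and, at the right, the median of all 19974 protein-coding genes, with 1 bar per mark and the threshold of 25% dashed. H3K4me3 fills 77.3% to 100% of the window at 9 genes, H3K79me2 is under the threshold at TEAD2, CCN2 and ANKRD1, and H3K27me3 covers 10.5% at TEAD2 and 0% elsewhere.

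As a check of the labelled cells, the same calls were made at lineage genes. Over all genes, 68.6% were called for H3K4me3, 52% for H3K79me2, 51% for both of these and 8.23% for H3K27me3. Both active marks were called at 10 of 11 basal epithelial genes and H3K27me3 at 0, and the exception, TP63, had none of the marks at the starts examined. Away from these starts TP63 was not without marks. H3K79me2 covered 20.7% of its record with 10 kb on each side, and H3K4me3 covered 8.74%. The medians of all genes were 14.5% and 7.37%. Among 5 luminal genes H3K4me3 was called at 2, H3K79me2 at 1 and H3K27me3 at 1. The same marks were called at 1, 0 and 2 of 5 stromal genes, at 1, 0 and 1 of 3 immune genes, and at 0, 1 and 0 of 3 endothelial genes.

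Both cofactor genes carried broad H3K4me3 at a start and H3K79me2 far into the gene. YAP1, at chr11:102110447-102233424, encodes the main transcriptional effector of the pathway. Its H3K4me3 peak at the start was 12065 bp wide, from 1185 bp before to 10879 bp after the start, at 14.7-fold over the caller's background and −log10 q of 52.1. That width stood at place 101 of the 67781 H3K4me3 peaks, and 99.2% of the 13702 genes called for H3K4me3 had a narrower peak at the start. Its height was ordinary, since 38% of these genes had a lower fold. The start is shared with YAP1-DT, a divergent long noncoding RNA whose record overlaps that of YAP1, so the part before the start cannot be given to either gene.

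H3K79me2 over YAP1 formed a peak of 69719 bp at 5.58-fold (−log10 q 8.77), reaching 67581 bp into the gene. It was followed after a short gap by a second of 43889 bp at 3.22-fold. The first ranked 325 by width and 217 by fold among 112731 H3K79me2 peaks. Together with 6 smaller peaks they covered 85.7% of the record with 10 kb on each side, a share above that of 99.3% of all genes. YAP1 had 0 peaks of H3K27me3 in this window. Of its 11 H3K4me3 peaks, 6 passed q of 0.05 or below, and beside the start the highest were 5.30-fold, 27766 to 29488 bp inside, and 3.68-fold over 5343 bp, from 111628 bp inside.

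WWTR1, at chr3:149517235-149724788, encodes TAZ, the paralogue of YAP. Its 2 listed starts did not look alike. The outer start, 21515 bp inside the record, had 0% of its window in peaks of any mark. The inner one, 66763 bp inside, had 100% H3K4me3 and 93.2% H3K79me2. The H3K4me3 peak there was 8312 bp wide at 13.6-fold (−log10 q 47.4), wider than that of 95.4% of called genes, with a fold above that of 30.5%. The record of WWTR1-AS1, an antisense RNA, lies just upstream of the inner start and partly under this peak. H3K79me2 began 342 bp after the inner start and ran on for 75421 bp at 3.43-fold, followed by a peak of 48596 bp at 2.78-fold. With only the outermost listed start of each gene, WWTR1 lost both calls, leaving 8 of 10 genes for H3K4me3 and 6 of 10 for H3K79me2, where 67% and 50.6% of all genes were called. With both record ends in place of starts, WWTR1 was again without a call, and 9 and 6 of the 10 genes were called, where 67.9% and 50.9% of all genes were. The 4 H3K27me3 peaks in the WWTR1 record and flanks were 165 to 258 bp wide with a highest −log10 q of 0.998.

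**Figure D2:**
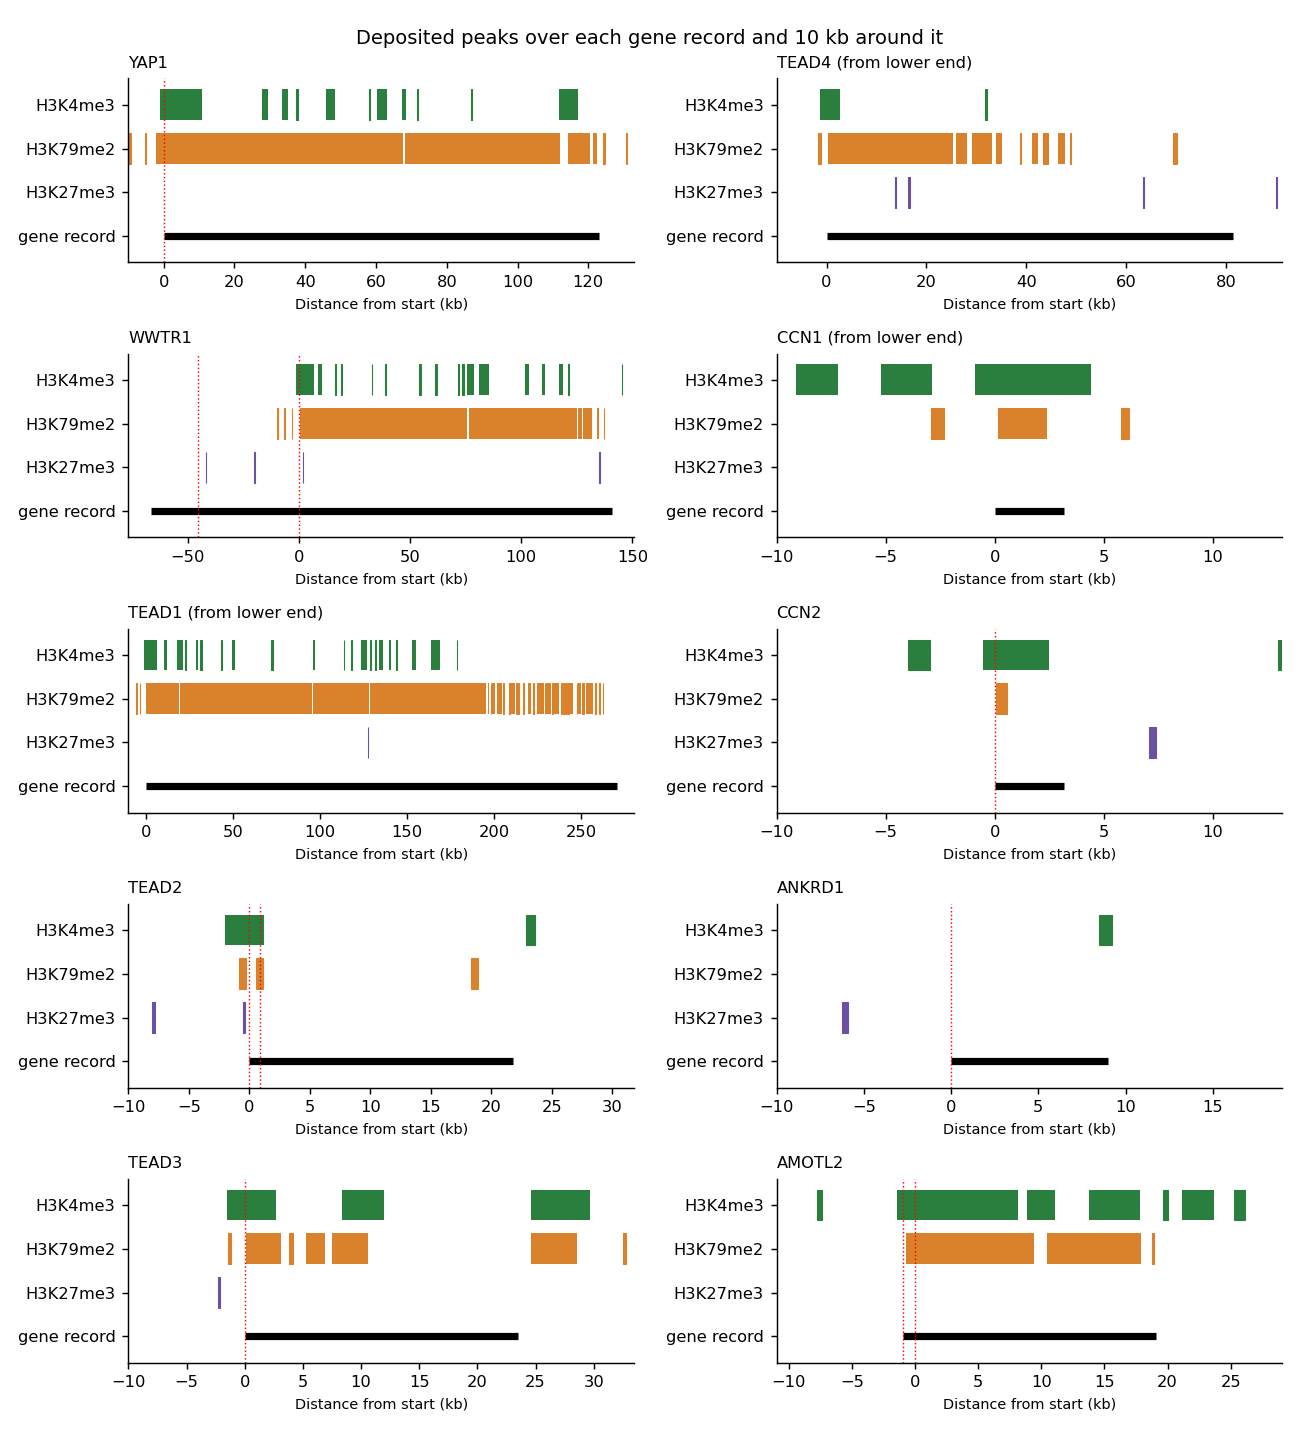
Deposited peaks of the 3 marks (coloured bars) over each gene record (black) with 10 kb on each side, by distance in kb from the start with the most H3K4me3, or from the lower-coordinate end for TEAD1, TEAD4 and CCN1. Dotted lines are listed starts, bars under 1 kb have a thin outline so that they can be seen, and bar height has no meaning. H3K79me2 fills most of YAP1, TEAD1 and the part of WWTR1 after its inner start, and ANKRD1 holds a lone H3K4me3 peak, at its far end.

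The 4 TEAD genes encode proteins with a shared TEA domain, which binds DNA but needs YAP, TAZ or a VGLL protein to act on transcription. All 4 had H3K4me3 over 100% of a window, and they parted in H3K79me2. At TEAD1, chr11:12674421-12944737, the lower-coordinate end carried H3K4me3 over 7609 bp at 16.4-fold and H3K79me2 over 18712 bp at 5.46-fold (−log10 q 8.46). The H3K79me2 fold at TEAD1 was above that of 97.4% of the 10379 genes called for the mark. Further H3K79me2 peaks of 75536, 32010 and 66569 bp followed at 4.10-, 3.0- and 3.61-fold, and the mark thinned into small peaks beyond 195429 bp. In all, 35 H3K79me2 peaks covered 77.7% of the TEAD1 record with its flanks, above the share of 97.8% of all genes.

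TEAD1 also held H3K4me3 away from its end. Of 21 peaks, 7 passed q of 0.05 or below. A peak of 1845 bp lay 153025 bp inside at 9.07-fold (−log10 q 21.9), within the record of the long noncoding RNA LOC107984313. Others stood at 5.16-fold, 17760 bp inside, and at 4.48-fold over 5171 bp, 163813 bp inside. The far end of the record had 0% of its windows in peaks of any mark.

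TEAD3, chr6:35473597-35497079, had the highest H3K4me3 fold of the 10 genes, 23.4 over 4221 bp (−log10 q 81.7). Only 376 of 67781 H3K4me3 peaks rank as high or higher, counting this peak, and 96.9% of called genes had a lower fold. H3K79me2 was modest at TEAD3, with a first peak of 3064 bp at 3.27-fold that began 86 bp after the start, and 67.4% of the call window covered. A second H3K4me3 peak in the window, 17.7-fold over 5106 bp, lies past the far end, over the ribosomal protein gene RPL10A, as does the highest H3K79me2 fold there, 3.53. The covered shares of TEAD3 with its flanks, 29.6% for H3K4me3 and 28.9% for H3K79me2, thus include those of its neighbour.

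TEAD4, chr12:2959397-3040676, had H3K4me3 over 4035 bp at 16.7-fold at its lower-coordinate end. H3K79me2 began 282 bp inside that end and extended over 25040 bp at 2.82-fold (−log10 q 1.83), covering 94.4% of the call window. The H3K79me2 fold at TEAD4 exceeded that of 25.8% of called genes, against 97.4% for TEAD1. Between 20 and 50 kb, H3K79me2 covered 56.1% of TEAD4, and in that stretch it covered 100% of TEAD1.

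TEAD2, chr19:49340595-49362416, was the exception among the 4. Its H3K4me3 peak was as high as those of TEAD1 and TEAD4, 16.3-fold over 3254 bp, but it lay more before the start than after it, from 2000 bp upstream to 1253 bp downstream. It also covers the listed start of DKKL1, whose record overlaps the first part of TEAD2, and which likewise had H3K4me3 and no call for H3K79me2. Only 11.9% of the H3K79me2 window of TEAD2 was covered, by a peak of 594 bp at 2.1-fold, and none of the 3 H3K79me2 peaks in the record and flanks passed q of 0.05. The highest −log10 q among them was 0.936. An H3K27me3 peak of 211 bp and 2.69-fold lay upstream of the TEAD2 start, with −log10 q of 0.702, a value that misses q of 0.05. Where a single base sufficed for a call, TEAD2 was the 1 gene of the 10 called for H3K27me3, and 20.9% of all genes were.

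The targets were chosen as genes known to respond to YAP and TEAD, and they were the most divided group. CCN1, chr1:85580761-85583950, encodes the matricellular protein CYR61. H3K4me3 covered the whole CCN1 record and beyond, 5292 bp at 15.0-fold, from 895 bp below its lower-coordinate end. H3K79me2 covered 2261 bp, or 70.9% of the record, at 2.66-fold (−log10 q 1.62), a fold above that of 19.7% of called genes. The peak with the highest fold in the window, 15.4 for H3K4me3, lies 2883 to 5205 bp below the record, within the record of the neighbour DDAH1 and close to its listed start.

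CCN2, chr6:131948176-131951372, encodes connective tissue growth factor and carries the 3 TEAD matches shown above. It had the lowest H3K4me3 fold at a start among the 9 called genes, 12.3 over 3033 bp (−log10 q 34.8), and 23.2% of all called genes had a lower value. H3K79me2 at CCN2 was a single peak of 500 bp and 2.61-fold, beginning 53 bp after the start. It passed q of 0.05 (−log10 q 1.37) but covered 15.6% of the gene, against 70.9% of CCN1, a gene of about the same length. CCN2 lies within the record of the long RNA CCN2-AS1. An H3K27me3 peak of 330 bp at 3.85-fold lay 7058 bp after the CCN2 start, beyond the gene, and with −log10 q of 2.09 it was the only one of 14 H3K27me3 peaks around the members to pass q of 0.05.

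ANKRD1, chr10:90912096-90921087, encodes the ankyrin repeat protein CARP and is widely used as a readout of YAP activity. Its start window had 0% of any mark. The window with flanks held 1 H3K4me3 peak of 720 bp and 2.22-fold (−log10 q 0.605), 8506 bp after the start and at the far end of the record, 0 H3K79me2 peaks, and 1 H3K27me3 peak of 348 bp at 2.69-fold (−log10 q 0.702), upstream of the gene. None of these passed q of 0.05. By this far peak ANKRD1 was called for H3K4me3 where both record ends were examined, with 36% of a window covered. Where 500 bp of peaks anywhere in the record and flanks sufficed, 10 of 10 genes were called for H3K4me3, as were 83.6% of all genes.

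AMOTL2, chr3:134355345-134375417, encodes an angiomotin-like junction protein that binds YAP and is itself a YAP target. It was the most heavily marked target. H3K4me3 ran over 9597 bp at 17.0-fold (−log10 q 59.5), wider than at 97.5% of called genes, and H3K79me2 over 10179 bp at 4.09-fold (−log10 q 4.73). H3K4me3 covered 100% of the window at the inner start and 74.5% at the outer one, 970 bp away, and H3K79me2 covered 100% and 95.5%. Over the AMOTL2 record with flanks, H3K4me3 covered 49.9%, above the share of 99.2% of all genes, and H3K27me3 peaks numbered 0.

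Taking the record with 10 kb on each side, the median share covered by H3K4me3 was 15.5% over the 10 genes and 7.37% over all protein-coding genes. It was 16.2% for the cofactors, 11.1% for the TEAD genes and 29.7% for the targets. For H3K79me2 the median was 33.1% over the 10 genes and 14.5% over all genes, with 71.8% for the cofactors, 33.1% for the TEAD genes and 8.19% for the targets. The targets thus had the highest median for H3K4me3 and the lowest for H3K79me2, while the cofactor median was above the TEAD median in both marks. The genes themselves overlapped between roles. TEAD1 (12.61% and 77.7%) was above WWTR1 (12.56% and 57.9%) in both marks, and TEAD3, at 29.6% H3K4me3, was above both cofactors. The targets ranged from 2.48% to 49.9% for H3K4me3 and from 0% to 44.3% for H3K79me2. Both short CCN genes weigh on the target medians, since a 10 kb flank is longer than the gene. The 9551 bp of H3K4me3 counted for CCN1 include peaks of 1936 and 2323 bp outside its record, within that of its neighbour DDAH1. The target median for H3K4me3 thus depends in part on a neighbour. H3K27me3 covered a median of 0.363% of the 10 windows and 0.614% of those of all genes, and it was at 0% in YAP1, CCN1 and AMOTL2. At least 500 bp of H3K27me3 lay in the windows of 2 of the 10 genes, WWTR1 and TEAD4, and in those of 43.5% of all genes.

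**Figure D3:**
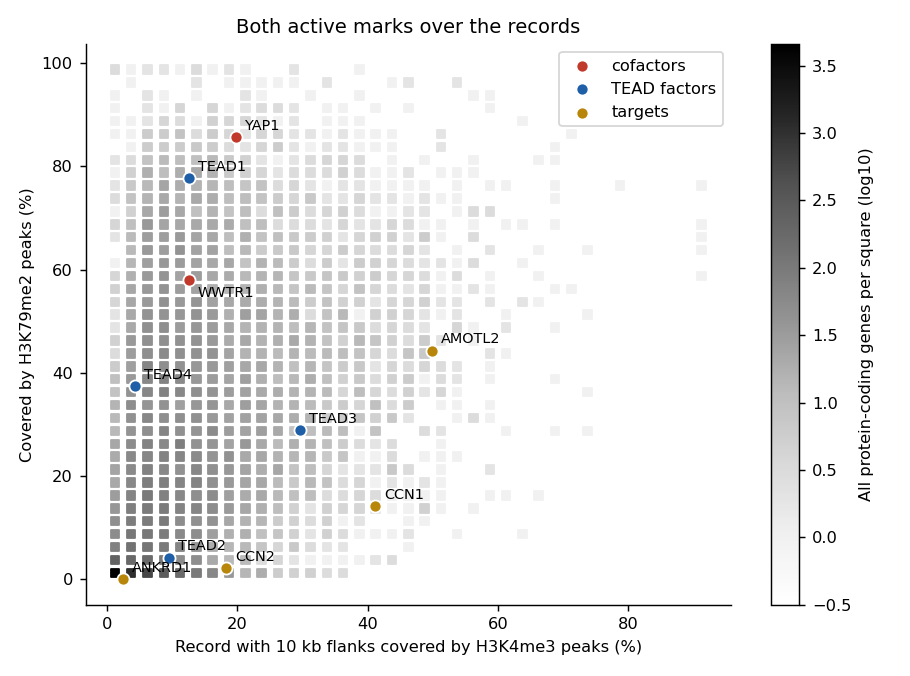
Share of each record with 10 kb flanks covered by H3K4me3 peaks (horizontal axis, percent) and by H3K79me2 peaks (vertical axis, percent), with the 10 genes coloured by role and all 19974 protein-coding genes as grey squares whose shade is the log10 number of genes. YAP1 and TEAD1 lie high at 85.7% and 77.7% H3K79me2, AMOTL2 and CCN1 lie to the right at 49.9% and 41.2% H3K4me3, and ANKRD1 lies near the origin. The shares of CCN1 and TEAD3 include peaks over neighbouring genes.

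The peaks at the starts shared a layout that most called genes had too. At all 9 genes called, the H3K4me3 peak spanned the start, and at 8 of them it reached further into the gene than away from it, TEAD2 being the exception. Among the 11184 genes with a listed start and a call for H3K4me3, the peak spanned the start at 10975. Of the peaks that spanned it, 77.2% reached further into the gene. The median peak width was 5292 bp over these 9 genes and 3478 bp over all genes called, while the median folds were 16.3 and 16.0. H3K79me2 began after the start used at 5 of the 7 genes called, 86 to 342 bp from it, and before it at YAP1 and AMOTL2. At AMOTL2 the start used is the inner one, and the H3K79me2 peak lay wholly within the gene record. Among all genes with a listed start and a call, 57.4% began after the start. Over all peaks, those that began before the start included, the median beginning was 138 bp after it for the 7 genes. It was 63 bp after it for the 8677 called genes with a listed start. The 2 medians are not measured alike, since the start used at TEAD1, TEAD4 and CCN1 is the lower-coordinate end of the record. These genes are among the 5, and the 138 bp is the value of CCN1. The median H3K79me2 fold of the 7 genes, 3.43, was close to the 3.45 of all genes called, and their median peak width was 18712 bp against 8936 bp.

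H3K79me2 covered the long members deep into the gene. From 20 to 50 kb after the start it covered 100% of YAP1, WWTR1 and TEAD1, where the median was 75% over 1447 genes with an H3K79me2 call and at least 100 kb beyond a listed start. From 50 to 100 kb it covered 98.8% of YAP1, 98.5% of WWTR1 and 98.6% of TEAD1, where the median of the 1447 genes was 37.5%. The shares of these genes with a lower value in that stretch were 94.9%, 93.6% and 93.9%. In the first 5 kb these members were at 100%, 93.2% and 96.7%, close to the median of 96.4% over the 1447 genes. In TEAD1 the share was still 97.1% from 100 to 200 kb. With peaks of −log10 q 5 or more, YAP1 and TEAD1 were the members called for H3K79me2, 2 of 10 where 12.8% of all genes were. With peaks of fold 5 or more they were again the 2 called, where 3.6% of all genes were. By looser rules 9 of the 10 genes were called for H3K79me2, ANKRD1 being the exception. These rules asked for a single base in the call window, which 59% of all genes had, or for 500 bp anywhere in the record and flanks, which 72.3% had.

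Most other regulators of the pathway carried both active marks. The 23 regulators examined are mainly the kinases, their scaffolds and the junction proteins that feed them, and they include VGLL4, a TEAD-binding inhibitor that is counted again among the VGLL genes. Of these, 21 had H3K4me3, 20 had H3K79me2 and 0 had H3K27me3, where 68.6%, 52% and 8.23% of all genes did. The median covered share of their H3K79me2 window was 98.9%, against 36% over all genes. The kinase genes LATS1 and LATS2, whose products phosphorylate YAP, had H3K4me3 at 22.4- and 15.5-fold and H3K79me2 at 4.12- and 4.76-fold. NF2, the gene of the scaffold merlin, had 13.7- and 4.85-fold. H3K79me2 covered most of the record with flanks at VGLL4 (87.4%), STRN3 (83.9%) and PTPN14 (78.9%). The exceptions were the protocadherin gene DCHS1, with 0% of its H3K4me3 window covered, AMOT, with 23.7% at 3.19-fold, and STK3. STK3 had H3K4me3 and 0% of its H3K79me2 window covered. Deeper in the gene it was not without the mark, since H3K79me2 covered 27.6% of the STK3 record with flanks. The median of all genes was 14.5%.

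Of 22 further genes known as YAP targets, 21 had H3K4me3 and 19 had H3K79me2, where 68.6% and 52% of all genes did. The median covered share of their H3K79me2 window was 97.0%. Of the 4 targets described above, 2 had H3K79me2. Some calls rest on peaks that miss q of 0.05. With peaks of q of 0.05 or below, H3K79me2 was called at 16 of the 22 genes and at 19 of the 23 regulators. It was still called at 2 of the 4 targets, and 44.6% of all genes were called by this rule. AXL, a receptor tyrosine kinase, had H3K4me3 at 20.4-fold and H3K79me2 at 3.10-fold, and THBS1, the gene of thrombospondin, had 14.6- and 3.21-fold. H3K79me2 covered the most of the record with flanks at PTPN14, at LATS2 (74.0%), both of which are among the 23 regulators too, and at CRIM1 (70.0%). The exceptions were DLC1, TGFB2 and IGFBP3. DLC1 had 0% of its start windows in either active mark, and TGFB2 had 12.3-fold H3K4me3 and 0% of its H3K79me2 window covered. Over the records with flanks, H3K79me2 covered 11.7% of DLC1 and 5.57% of TGFB2, and H3K4me3 covered 4.48% of DLC1. The medians of all genes were 14.5% for H3K79me2 and 7.37% for H3K4me3. IGFBP3, a binding protein of insulin-like growth factors, had H3K4me3 at 8.63-fold together with H3K27me3 over 65.7% of its window at 5.73-fold (−log10 q 5.33). That was the lone H3K27me3 call of the 22 genes, where 8.23% of all genes were called. With peaks of −log10 q 5 or more, H3K79me2 was called at 4 of these 22 genes and at 10 of the 23 regulators, where 12.8% of all genes were called.

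The VGLL genes encode cofactors that bind TEAD in place of YAP. VGLL4, an inhibitor of YAP, had H3K4me3 at 17.3-fold and H3K79me2 at 3.88-fold over 100% of the window, and VGLL3 had 11.1-fold and 2.08-fold, where H3K79me2 had −log10 q of 0.653. VGLL2 had H3K4me3 at 7.18-fold with H3K27me3 over 96.5% of its window at 6.79-fold (−log10 q 7.99), and VGLL1 had no call. Of the other 4 genes of the CCN family, CCN3 had H3K4me3 at 11.5-fold and CCN5 at 2.32-fold, a peak that missed q of 0.05. Of these 4 genes 0 had H3K79me2, where 52% of all genes did. CCN1 was the 1 gene of the family with both active marks.

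**Figure D4:**
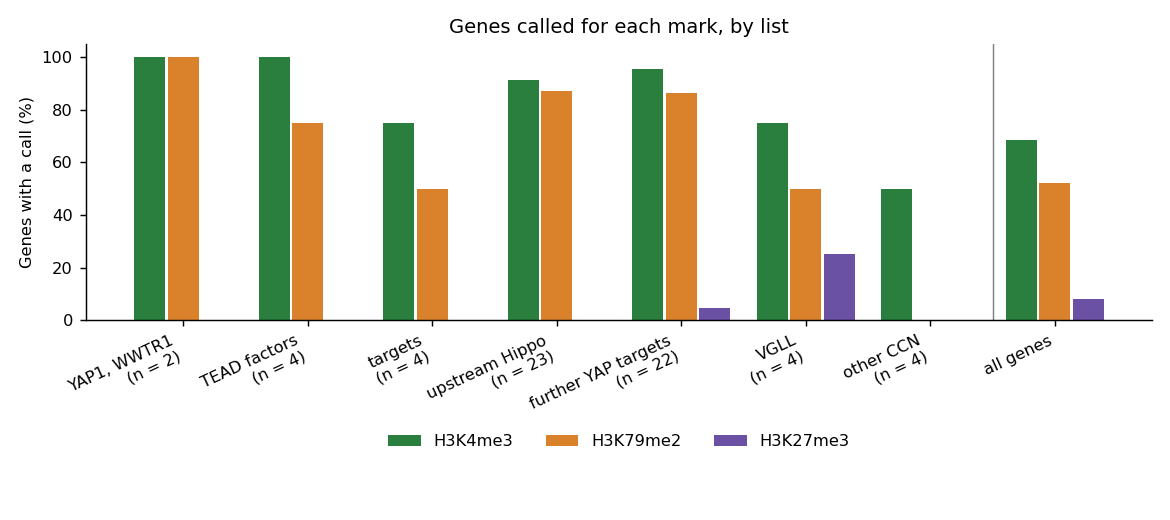
Percent of genes called (vertical axis) for each mark in the 3 roles of the 10 genes, in 4 lists of related genes with their sizes, and in all protein-coding genes at the right. H3K79me2 is called at 87.0% of the 23 regulators (upstream Hippo) and 86.4% of further YAP targets, against 52% of all genes, and at 50% of the 4 targets.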

How the data were processed

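Peaks came from 1 ChIP-seq library each of H3K4me3, H3K79me2 and H3K27me3 in MCF10A. The submitters' processing notes name Bowtie2 2.3.1, MACS2 2.1.1 and the build hg38. Peaks were called per library at p of 0.05, per the deposited peak names, in broad layout for H3K4me3 and H3K79me2 and narrow layout for H3K27me3. No source used here says whether the input served as control. The fold of each peak is the authors' ratio over the caller's background, and the −log10 p and −log10 q are the deposited values of the caller. Fold was used only within its own list. The other deposited columns used are starts and ends in bp, with no score.

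Gene records and starts came from RefSeq GRCh38.p14. Of 19974 genes, 15812 had a listed start, 4036 of them several, and for the other 4162 both record ends were examined, so genes with several starts or none listed have more windows. Distances at TEAD1, TEAD4 and CCN1 run from the lower-coordinate end. Overlapping peaks were merged before bases were counted, with Python 3.11.15, NumPy 2.4.6 and pandas 2.3.3, and the counting was tested on simulated data. Members and lists were chosen with earlier results of these data known, and their calls have no test. All 10 members are named, and from other lists the exceptions and leading genes. LATS1, LATS2, NF2, AXL and THBS1 were added after their values were seen. Alternatives were stricter peaks, other covered shares, windows, flanks and places of the window.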

Additional observations from a re-analysis of the deposited data

How the results depend on the processing

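With 1 library per mark, no replicate could be left out, and depth is unknown. No paired analysis was possible because each mark has 1 library and no replicate numbers. H3K4me3 was called at 8 to 10 of the 10 genes in every alternative, where 64% to 83.6% of all genes were called. The 8 came from the outermost listed start only, a choice made after seeing the data, where 67% of all genes were called. Under that choice H3K79me2 was called at 6, where 50.6% of all genes were. H3K79me2 was called at 6 to 9, with 9 under rules that called 59% and 72.3% of all genes, outside the 2 strictest rules. With peaks of −log10 q 5 or more it was called at 2, where 12.8% of all genes were. With peaks of fold 5 or more it was again called at 2, where 3.6% of all genes were. H3K27me3 stayed at 0, except for 1 (TEAD2) when 1 bp sufficed and 2 (WWTR1 and TEAD4) when 500 bp anywhere in the record with its flank did. These 2 rules called 20.9% and 43.5% of all genes.

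For H3K4me3, the median covered share of the record with its flank over the 10 genes was 8.71% with peaks of −log10 q 5 or more. Over all genes it was 5.29%. With peaks of fold 5 or more the medians were 8.71% and 5.06%. For H3K79me2 the median was 0% at each of these thresholds, for the 10 genes and for all genes alike. With no flank it was 54.7% for the 10 genes and 12.0% for all genes. For H3K27me3 the median of the 10 genes was 0% at each of these thresholds, at q of 0.05 or below and with no flank. That of all genes was 0% too, except for 0.188% with no flank. With a flank of 5000 bp the median was 0.211% for the 10 genes and 0.49% for all genes. Stricter thresholds leave fewer peaks, and the narrower flank leaves out bases, by construction. Of 300 values of single genes under alternatives, 277 stayed on the same side of their threshold, 14 fell below it and 9 rose above it.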

Other observations

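The pathway gene AMOT and the TEAD cofactor gene VGLL1 lie on chromosome X and had none of the calls at a start. H3K27me3 peaks covered 22.9% of the AMOT record with 10 kb on each side and 16.1% of that of VGLL1. The median over the 848 protein-coding genes of chromosome X was 5.74%, and over the 19126 genes of chromosomes 1 to 22 it was 0.587%. By the rule at starts, however, H3K27me3 was called at 9.32% of genes on X and 8.18% of those on the other chromosomes.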
